A study of Rattus norvegicus with 18 samples.

Results

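H3K4me3 in primary rat Schwann cells 3.5 h after washout of cAMP was compared with untreated control cells at every merged peak of the ChIP-seq experiment. All 16364 of the 16364 peaks in the count table were used, with no selection on their values, and the rows that hold reads outside peaks were left out. The comparison rests on 6 ChIP libraries, 3 from control cells and 3 from cells given the cAMP analog for 30 min and collected 3.5 h after its removal. By the paper's methods, treated cells were also washed with PBS and given new medium. Whether control cells were washed or given new medium is not stated. Effects of the analog therefore cannot be told apart here from those of the wash, the new medium or the added time. The analog was at 50 μM by the paper and 1 label field, and at 100 μM by another label field. The analog was 8-CPT-cAMP, which crosses the cell membrane. The cells were passaged cultures from sciatic nerves of 3-mo-old Fisher rats, so they had been away from axons, and they were kept for the experiment without neuregulin or forskolin. Their identity was not checked against marker genes, since the peaks carry no gene annotation here. Neither labels nor methods say that replicates came from separate cultures, so p-values measure only the spread between these libraries, which may be technical. A genomic input library accompanied each ChIP library, and 3 ChIP libraries from 30 min after washout are given beside some peaks for their level only.

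Trimethylation of lysine 4 on histone H3 (H3K4me3) marks the promoters of active and poised genes. It is written by COMPASS-family methyltransferases and removed by JmjC demethylases of the KDM5 family. Most promoters carry a narrow peak around the start site, and broad H3K4me3 domains cover genes tied to cell identity. In Schwann cells, the glia of peripheral nerves, cAMP takes part in the control of proliferation and of the myelinating programme.

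Depth was even, at 13762905 to 15499672 reads in peaks for each of the 6 ChIP libraries. The inputs of the same groups had 27344 to 675044 reads in peaks, or 1.05% to 2.95% of their counted reads. Input control replicate 3 had the most and weighs most in the pooled input. A ChIP library's reads in peaks made up 79.7% to 83.0% of its counted reads in the control group and 79.1%, 87.2% and 88.5% in 3.5 h replicates 1, 2 and 3. The means of 81.7% ± 1.76 and 84.9% ± 5.08 (SD, n = 3) gave p = 0.4 by an exact two-sided permutation test, which cannot go below 0.1 with 3 against 3. Control libraries varied little: the chi-square statistic between their counts was 0.664 per degree of freedom for replicates 1 and 2 and 0.906 and 0.917 for the other pairs, all less than sampling noise. The control replicates differed in their reads outside peaks (2817646, 3683652 and 3113943) and were kept as separate libraries. Counts that agree more closely than sampling noise may understate the spread between control cells, so the p-values may be too small. With control replicates 1 and 2 averaged as 1 sample, chosen after the data were seen, 720 peaks were higher and 1145 lower. The 3.5 h pairs gave 1.63 to 4.20. The biological coefficient of variation was 0.988% in the control group and 4.12% at 3.5 h. The 3.5 h libraries lay at unequal distances from the control mean, with a median absolute log2 difference over peaks of 0.0726, 0.112 and 0.126 in replicates 1, 2 and 3, so the order of distance was the order of the share of reads in peaks. The part of this share in the results was not tested.

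At 4 peaks on chromosomes 4, 10, 12 and 14 the libraries split regardless of group. Together these peaks held 989 and 899 reads in control replicates 1 and 2 and 1158 in 3.5 h replicate 1, against 15 in control replicate 3, 10 and 13 in 3.5 h replicates 2 and 3, and 19 to 32 at 30 min. None of the 4 was called. With this split as a term in the fit, chosen after the data were seen, 1593 peaks were higher and 2162 lower.

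At 3.5 h, 2069 peaks were higher than in control cells and 2635 were lower by edgeR's quasi-likelihood test at an adjusted p-value under 0.05. These are 12.6% and 16.1% of the peaks tested. Most of these changes were small: the median log2 change was 0.19 among the higher peaks and −0.20 among the lower ones, and over all peaks it was 0.005. Large changes went in 1 direction, since 214 of the lower peaks fell by more than 2-fold and 2 of the higher peaks rose by more. Of the 214, 115 were called in every fit that left out 1 library. All 3 libraries at 3.5 h lay above all 3 control libraries at 22.8% of all peaks and below them at 24.8%. The balance of the calls depends on scaling. Without TMM factors 2393 peaks were higher and 2371 lower, so higher peaks made up 50.2% of calls. With all counted reads as library size and no TMM factors, 2044 peaks were higher and 1163 lower, so higher peaks made up 63.7% of calls instead of 44.0%, and the median log2 change was 0.07. In every fit that left out 1 library, 548 higher and 847 lower peaks were called again, and 541 and 453 were called in all 17 alternative fits, of which the filter on 10 counts tested 16283 peaks. The input libraries gave 0 changed peaks of 2551 tested by the same edgeR test, with 21 higher and 16 lower at an unadjusted p-value under 0.05. The remaining peaks held too few input reads to pass the filter. Few input reads lay in peaks, so this test had little power, and its 0 says little about background at most peaks.

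**Figure D1:**
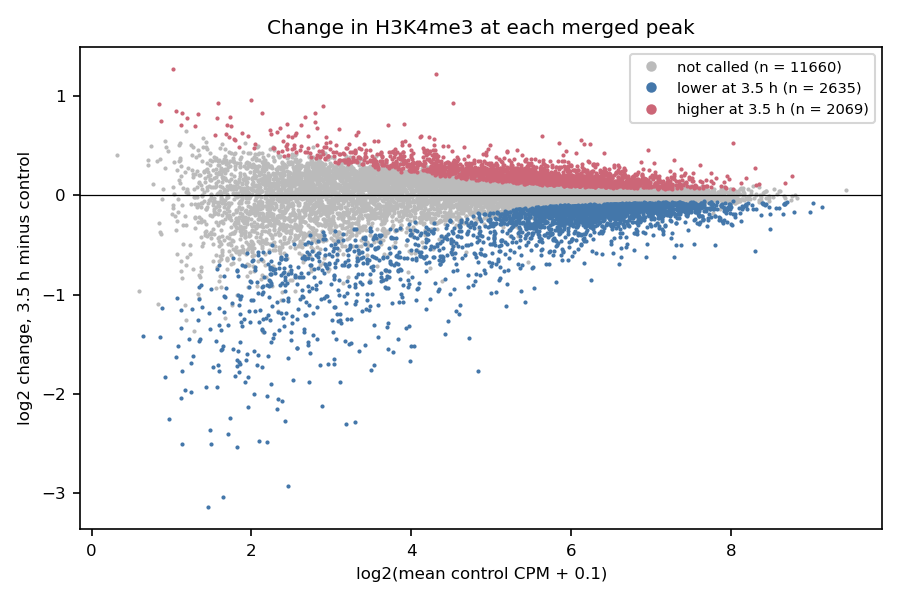
Log2 change in H3K4me3 (3.5 h minus control, edgeR) of each of the 16364 peaks against its mean control level as log2(CPM + 0.1). Called falls spread down to −3.14 among low peaks, whereas called rises reach 1.27.

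Among the largest rises, most were at narrow or weak peaks. Levels are in CPM, read counts scaled to the library's reads in peaks with TMM factors, and positions are on Rnor_6.0 as the peak table gives them. Peak_7013 (chr7:137141903-137142246, 344 bp) had 1.90, 2.01 and 1.87 CPM in the control libraries and 4.24, 4.82 and 4.99 CPM at 3.5 h. The groups did not overlap, and the log2 change of 1.27 ± 0.18 (SE) had an adjusted p of 0.00174. At 30 min this peak already had 3.54 to 5.51 CPM.

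Peak_6356 (chr5:173688590-173689829, 1240 bp) was stronger and shared the smallest adjusted p of the table, 1.98e-05, with Peak_14008. Its 18.5, 20.4 and 20.5 CPM in control cells became 48.9, 43.7 and 45.9 CPM, a log2 change of 1.22 ± 0.06 or 2.33-fold. The 30 min libraries, at 17.8 to 20.4 CPM, lay at the control level. Peak_7154 (chr8:50225697-50228814) was the widest of the 10 largest rises, at 3118 bp. It rose from 25.5, 21.4 and 22.1 CPM to 49.5, 46.7 and 34.7 CPM, with 3.5 h replicate 3 the lowest of its group but still above every control library. Its log2 change was 0.93 ± 0.12 (adjusted p = 0.00146).

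Peak_6397 (chr6:12364904-12365831) has a neighbour within 1 kb on each side, Peak_6396 (chr6:12362482-12363952) and the closer Peak_6398 (chr6:12365955-12366537), and all 3 were called higher. Peak_6397 went from 6.50, 8.06 and 7.54 CPM to 15.7, 13.6 and 12.1 CPM. Its neighbours changed by 0.72 ± 0.12 (Peak_6396) and 0.58 ± 0.19 (Peak_6398, adjusted p = 0.0473) on the log2 scale. Peak_6398 went from 2.92, 3.13 and 3.53 CPM to 5.71, 4.82 and 3.79 CPM. The other rises among the 10 largest were Peak_5815 on chromosome 4, Peak_6606 on chromosome 6, Peak_6592 on chromosome 1, Peak_8149 on chromosome 10, Peak_8624 on chromosome 12 and Peak_3870 on chromosome 15, at log2 changes of 0.83 to 0.96. Of the 10, 6 were called in every fit that left out 1 library. Peak_6592, Peak_8149, Peak_8624 and Peak_3870 were not.

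The largest falls were deeper and sat at narrow, weak peaks, 296 to 948 bp wide, with control means of 2.10 to 5.38 CPM. Peak_14692 (chrX:66677710-66678050) dropped from 2.34, 1.67 and 3.95 CPM to 0.514, 0.138 and 0.211 CPM, a log2 change of −3.14 ± 0.52 (adjusted p = 0.00315). Peak_347 (chr17:18104753-18105288) dropped from 3.14, 2.78 and 3.18 CPM to 0.449, 0.344 and 0.281 CPM, a log2 change of −3.04 ± 0.30 (adjusted p = 0.000444). At neither peak did the groups overlap, and all 3 libraries at 3.5 h were near zero.

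Peak_9142 (chr14:24094452-24094870) went from 5.40, 4.38 and 6.37 CPM to 0.321, 0.963 and 0.843 CPM. Peak_10971 (chr1:137209208-137209889) went from 5.04, 4.31 and 4.08 CPM to 0.642, 0.963 and 0.773 CPM. Their log2 changes were −2.93 ± 0.31 and −2.49 ± 0.24. The remaining peaks of the 10 were Peak_9964 on chromosome 17, Peak_10359 on chromosome 19, Peak_9551 on chromosome 15, Peak_12006 on chromosome 4, Peak_14375 on chromosome 9 and Peak_13495 on chromosome 7, at −2.53 to −2.36. Except Peak_10359, where 3.5 h replicate 1 had 1.16 CPM and the others 0.138 and 0.0703, the 10 falls were called in every fit that left out 1 library. At each of the 10 peaks every 30 min library lay above every 3.5 h library: at Peak_14692 the 30 min libraries had 3.05 to 5.51 CPM and at Peak_347 2.55 to 5.27 CPM.

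The levels at these peaks were also set against input. Both groups were divided by the same pooled input, so these ratios restate the falls and are no separate evidence for them. Scaled by all counted reads, the control libraries stood at 5.37 to 23.0 times the pooled input over the 10 peaks, and the 3.5 h libraries at 0.975 to 4.59 times. These ratios rest on 6 to 19 pooled input reads and, at 3.5 h, on as few as 1 read in a library. Over the 214 peaks that fell by more than 2-fold, the median was 11.2 times input in control cells and 4.25 times at 3.5 h, and 99 of them lay under 4 times input at 3.5 h against 1 in control cells. Of the 214, 101 were under 700 bp wide and 16 were 1500 bp or wider. The median change of these peaks from the control mean, on the log2(CPM + 0.1) scale, was −0.85 in 3.5 h replicate 1, −1.42 in replicate 2 and −1.97 in replicate 3. The share of counted reads outside peaks, 20.9%, 12.8% and 11.5% in these libraries, fell in the same order, and its part in these falls was not tested.

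**Figure D2:**
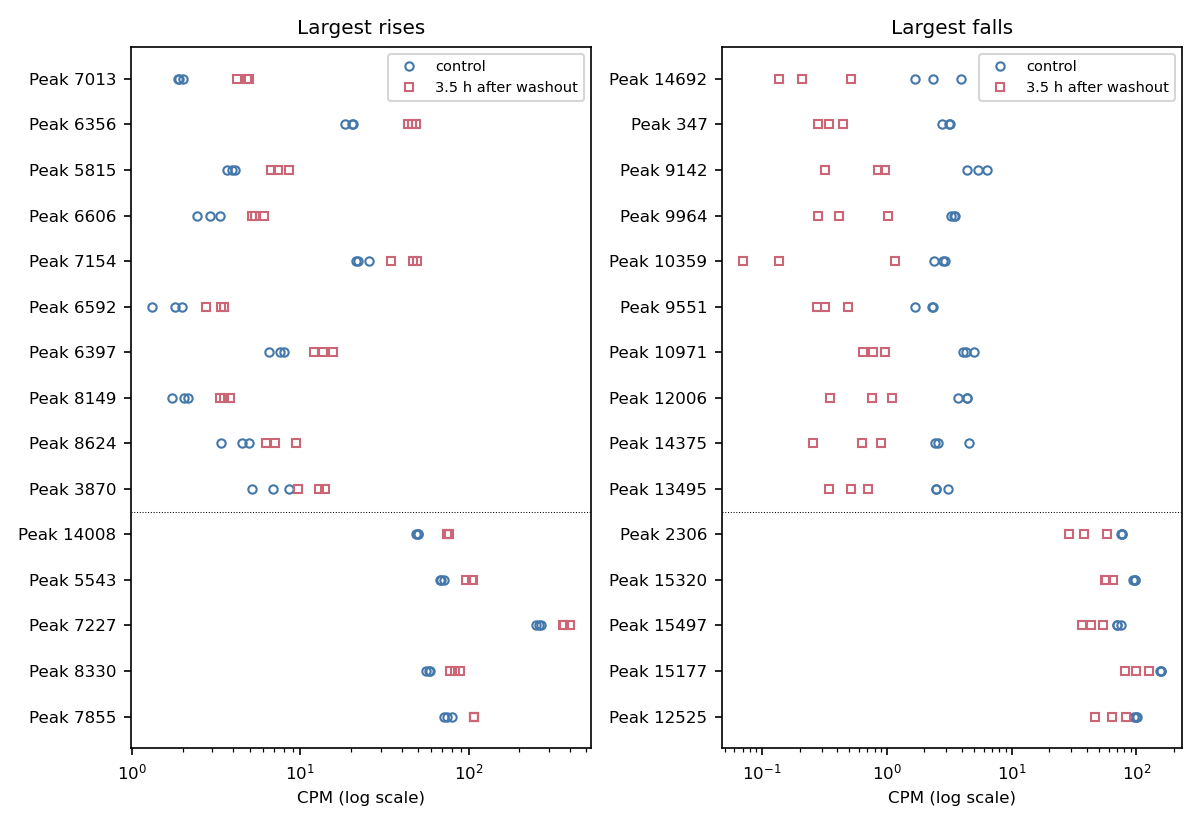
CPM (log axis) in each of the 3 control and 3 3.5 h libraries at the 10 largest rises and falls (above the dotted line) and at the 5 largest among peaks above the median level (below it). The groups do not overlap at any of these peaks, by the rule that chose them, and the 10 largest falls end at means of 0.287 to 0.793 CPM.

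Among peaks above the median level of 51.1 CPM, the largest changes were smaller. The largest rise was at Peak_14008 (chr8:58869877-58871961), from 48.6, 50.3 and 50.2 CPM to 74.4, 75.5 and 76.6 CPM. This is a log2 change of 0.60 ± 0.03 (adjusted p = 1.98e-05), with an SD of 0.973 CPM in control cells and 1.08 CPM at 3.5 h. Peak_7227 (chr8:68961735-68968665), a broad domain of 6931 bp, rose from 253, 262 and 270 CPM to 401, 366 and 369 CPM, a log2 change of 0.53 ± 0.04 (adjusted p = 0.000148). Its 30 min libraries had 263 to 268 CPM, within the control range. Peak_5543 on chromosome 3, Peak_8330 on chromosome 10 and Peak_7855 on chromosome 1 rose by 0.56, 0.53 and 0.52, and all 5 rises were called in every fit that left out 1 library.

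The falls of this class were less even between libraries. Peak_2306 (chr7:144064000-144066917) went from 77.0, 74.8 and 76.5 CPM to 58.7, 38.2 and 28.6 CPM, a log2 change of −0.85 ± 0.17 (adjusted p = 0.00759). The SD was 1.17 CPM in control cells and 15.4 CPM at 3.5 h, and the adjusted p lost the threshold in 1 of 6 fits that left out a library. Peak_15320 (chr10:73900411-73905166, 4756 bp) fell from 98.3, 96.7 and 94.8 CPM to 65.6, 55.9 and 57.3 CPM, a log2 change of −0.69 ± 0.05 (adjusted p = 0.000157). Peak_15497 on chromosome 1, Peak_15177 on chromosome 10 and Peak_12525 on chromosome 5 fell by 0.68, 0.62 and 0.62 on the log2 scale, and Peak_12525 was called in 4 of the 6 fits. In each of the 5 falls 3.5 h replicate 1 had the highest level of its group.

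Among peaks of 2500 bp or more, those with the smallest p-values moved by modest amounts. Peak_5789 (chr4:100096845-100099951) rose from 120, 126 and 129 CPM to 173, 169 and 171 CPM (log2 0.45 ± 0.03). Peak_314 (chr16:83822809-83831013), 8205 bp wide, rose from 313, 315 and 321 CPM to 388, 378 and 385 CPM (log2 0.28 ± 0.02). Their adjusted p-values were 7.89e-05 and 0.000161. The falls included Peak_14915 (chr1:267238584-267242923), a weak domain of 4340 bp that went from 30.7, 33.0 and 31.6 CPM to 18.0, 15.6 and 14.5 CPM, a log2 change of −0.98 ± 0.08 (adjusted p = 0.000293). Peak_316 (chr17:799917-805524) went from 102, 99.7 and 94.8 CPM to 72.9, 67.1 and 64.2 CPM (log2 −0.53 ± 0.05). Peak_14398 on chromosome 9 and Peak_15804 on chromosome 11 fell by 0.38 and 0.30. Peak_7855 (chr1:267089551-267093918), which rose from 71.4, 79.7 and 74.5 CPM to 108, 107 and 108 CPM, lies on the same chromosome, more than 100 kb from Peak_14915.

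Calls differed in number and direction with peak width. Of the 543 peaks of 4000 bp or more, 223 (41.1%) were lower and 50 (9.21%) higher. Peaks of 2500 to under 4000 bp were lower in 593 of 2156 cases (27.5%) and higher in 250 (11.6%). Among peaks of 1500 to under 2500 bp the calls were near balance, with 1006 of 5825 lower (17.3%) and 884 higher (15.2%), and in the class of 700 to under 1500 bp more were higher, 827 of 6255 (13.2%) against 640 (10.2%). That majority turned with DESeq2 (358 higher, 448 lower), with loess offsets (717 and 806) and without control replicate 1 (201 and 207). Below 700 bp, 173 of 1585 peaks were lower (10.9%) and 58 higher (3.66%). The typical standard error fell with width, from a median of 0.173 below 700 bp to 0.0268 at 4000 bp or more, so smaller changes reach the threshold in wider peaks. With all counted reads as library size, calls turned to 771 higher and 324 lower at 1500 to under 2500 bp and to 190 higher and 135 lower at 2500 to under 4000 bp and stayed at 41 higher and 60 lower at 4000 bp or more. Of the widest peaks, 19.0% were lower and 6.26% higher in every fit that left out 1 library.

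The size of the typical change by width was small. The median log2 change was −0.05 at 4000 bp or more, −0.03 at 2500 to under 4000 bp and 0.04 at 700 to under 1500 bp, and with all counted reads as library size the medians of both wide classes became positive (0.01 and 0.04). Large changes sat in the narrow classes: 111 peaks under 700 bp and 98 of 700 to under 1500 bp had a log2 change below −1, against 0 of 4000 bp or more. Lower calls outnumbered higher ones among the widest peaks at each level of read density. With peaks split into 3 equal classes at 21.2 and 40.1 CPM per kb, 56.0%, 45.5% and 33.2% of peaks of 4000 bp or more were lower in the low, middle and high class. All 225 peaks that fell by more than 2-fold, called or not, were among the 5455 of the low class. Density was taken from the mean over all 6 libraries, so a fall at 3.5 h itself lowers a peak's density.

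Read shares by width moved by under 1 percentage point. Peaks of 4000 bp or more held 11.1%, 11.1% and 11.0% of the reads in peaks in the control libraries and 10.9%, 10.7% and 10.6% at 3.5 h. The groups did not overlap in this class, and p was 0.1 by an exact permutation test, the smallest possible, or 0.167 adjusted over 5 classes. Peaks of 2500 to under 4000 bp went from 26.0% ± 0.0800 to 25.7% ± 0.0604 (SD, n = 3), again without overlap. Peaks of 700 to under 1500 bp went up from 18.9% ± 0.130 to 19.3% ± 0.130. The adjusted p was 0.167 in both of these classes, so no class passed the threshold. In the narrowest class 3.5 h replicate 3, at 1.03%, lay below all other libraries (1.08% to 1.12%), and the groups overlapped. With all counted reads as denominator the mean share of both wide classes was higher at 3.5 h.

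**Figure D3:**
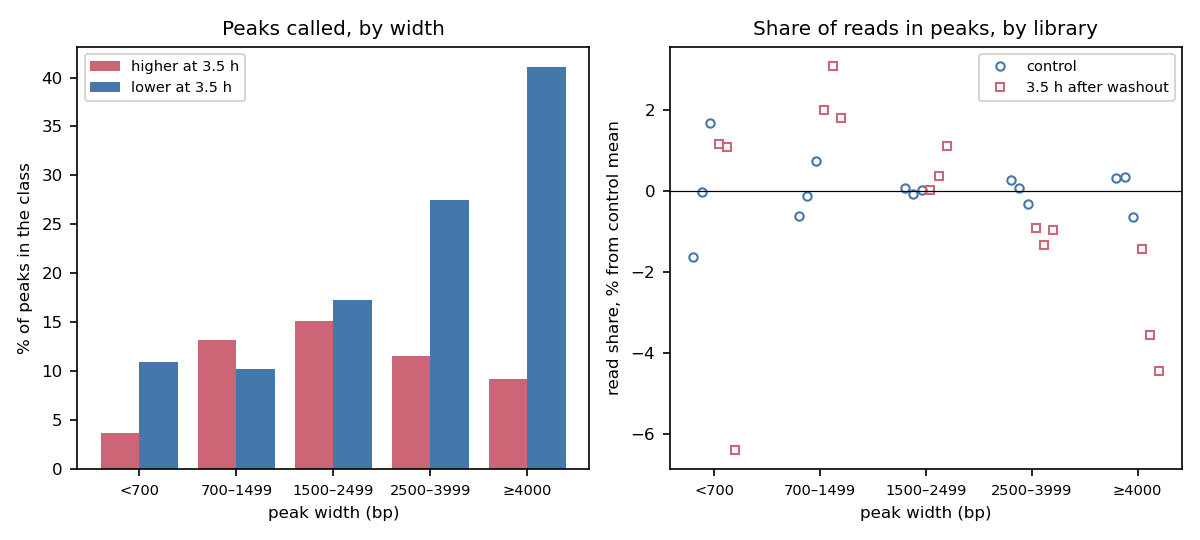
Left, the percentage of peaks in each width class (bp) called higher or lower at 3.5 h. Right, the share of reads in peaks held by each class in each library, as percent difference from the control mean. The share of lower peaks climbs to 41.1% at 4000 bp or more, where all 3 libraries at 3.5 h lie below the control libraries.

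Chromosomes differed little in their total signal. The mean share of reads in peaks was higher at 3.5 h on 11 of the 20 numbered chromosomes and lower on 9, and the relative change ran from −1.06% on chromosome 12 to 1.15% on chromosome 14. On 11 chromosomes the groups did not overlap: shares were above the control libraries on chromosomes 3, 5, 14, 15 and 16 and below them on chromosomes 1, 7, 8, 10, 11 and 12. Each of these reached the smallest exact permutation p of 0.1, and after adjustment over 20 chromosomes p was 0.182, so no chromosome passed. Chromosome 1, the largest, held 12.3% ± 0.00128 of the reads in control cells and 12.2% ± 0.0544 at 3.5 h (SD, n = 3).

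The calls by chromosome were mostly toward lower levels, as were the calls over all peaks (16.1% lower, 12.6% higher). With all counted reads as library size, 63.7% of the calls over all peaks were higher. Calls by chromosome were not counted with that scaling. On 16 of 20 chromosomes more peaks were lower than higher. The exceptions were chromosomes 3 (175 higher, 166 lower), 5 (175 and 137), 14 (80 and 69) and 20 (63 and 60). Chromosome 12 had the highest percentage of lower peaks, 18.9% of 562, with 10.1% higher, just ahead of chromosome 17 with 18.8% of 573. Chromosome 5 had the highest percentage of higher peaks among the numbered chromosomes, 15.6% of 1124, and the lowest of lower peaks, 12.2%. On the X chromosome, described without a test, 79 of 475 peaks were higher and 58 lower, and its share of reads was 2.01% ± 0.0232 in control cells and 2.06% ± 0.0151 at 3.5 h.

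**Figure D4:**
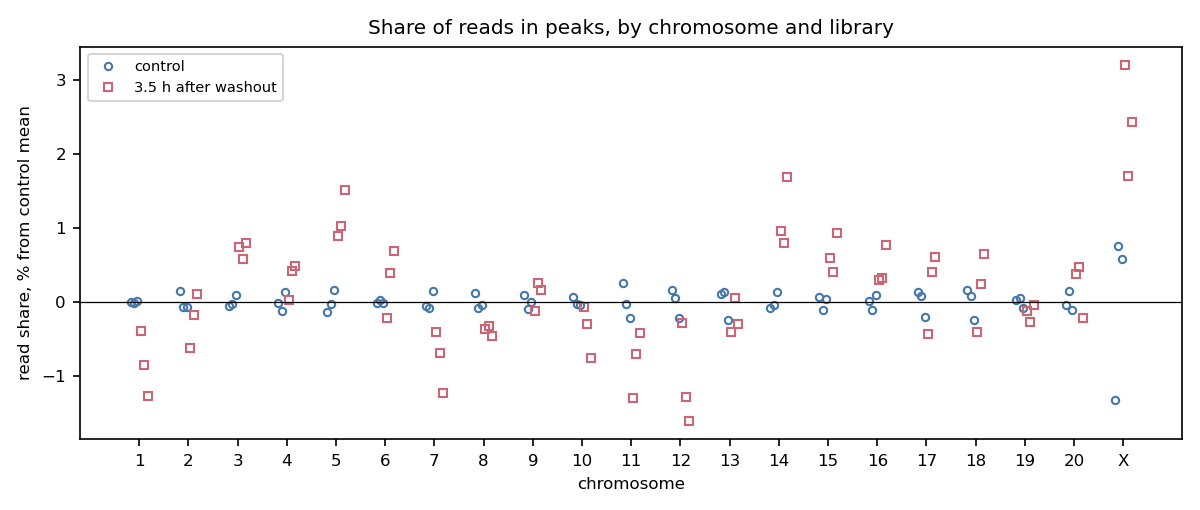
Share of reads in peaks on each chromosome in each library, as percent difference from the control mean. The numbered chromosomes stay within 2% of it, and the groups overlap on 9 of 20.

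Neighbouring peaks tended to move together, and more so the closer they were. Of 16306 pairs of adjacent peaks, both were called in 1387, and 824 of these pairs (59.4%) moved the same way. At gaps under 1 kb, 79 of 101 such pairs (78.2%) moved together, 55 down and 24 up. Over all 989 pairs at this gap, called or not, 56.6% had changes of the same sign, against 50.8% at 100 kb or more. The share was 73.3% of 101 pairs at 1 to under 5 kb, 65.2% of 264 at 5 to under 20 kb and 57.5% of 518 at 20 to under 100 kb. At 100 kb or more it was 49.9% of 403 pairs. Across all pairs under 1 kb, called or not, Pearson's r between the log2 changes of neighbours was 0.20 (989 pairs), and it was 0.04 at 100 kb or more (5031 pairs). These pairs share the 6 libraries, and close peaks may be parts of 1 enriched region. Pairs are not independent, so no test was made.

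**Figure D5:**
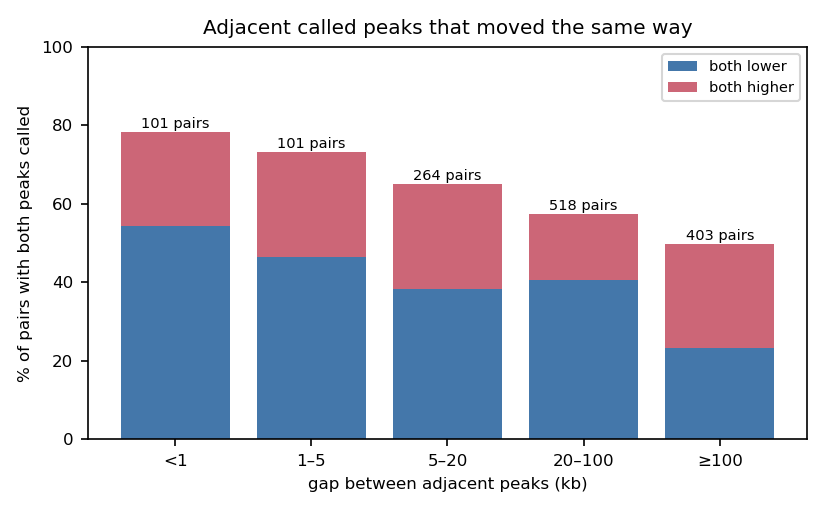
Percentage of adjacent peak pairs, both called, that moved in the same direction, by the gap between them in kb, stacked as both lower and both higher. The percentage declines from 78.2% under 1 kb to 49.9% at 100 kb or more.

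Being close to another peak also went with more falls. Peaks whose nearest neighbour lay under 1 kb away were lower in 19.9% and higher in 10.7% of 1902 cases, whereas peaks at least 100 kb from any other were lower in 12.4% and higher in 15.5% of 2335. In the class of 1500 to under 2500 bp, close peaks were lower in 21.4% and higher in 15.1%, and isolated peaks lower in 11.9% and higher in 20.4%. Below 700 bp this was not seen, with 11.9% of close and 12.2% of isolated peaks lower. Pairs in opposite directions occurred at short range too, in 22 of the 101 closest called pairs. Peak_9943 (chr17:43931177-43931854) rose from 1.24, 2.01 and 1.94 CPM to 2.70, 3.03 and 3.09 CPM. Peak_9944 (chr17:43932027-43932557), the next peak, fell from 4.23, 3.20 and 3.95 CPM to 0.835, 0.619 and 1.12 CPM. This pair was picked after its values were seen.

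Runs of consecutive called peaks were short. There were 666 runs of at least 2 peaks in the same direction, 130 of at least 3, 24 of at least 4 and 4 of 5, the longest. Of the 4 runs of 5, the one with the largest median change spans 126 kb of chromosome 1 (chr1:263883396-264009647), where Peak_14869, Peak_2899, Peak_14871, Peak_2900 and Peak_14872 fell by 0.20 to 0.91 on the log2 scale. In that run Peak_2900, the weakest, went from 4.16, 4.93 and 4.36 CPM to 2.63, 2.13 and 2.39 CPM. Peak_14869, the strongest, went from 89.7, 90.1 and 87.8 CPM to 76.9, 76.6 and 78.5 CPM. Peak_14871 and Peak_14872 were each called in 2 of 6 fits that left out 1 library, and the other members in all 6. With all counted reads as library size, Peak_14869, Peak_14871 and Peak_14872 were not called (adjusted p = 0.131, 0.116 and 0.0531). Peak_14872 was not called with DESeq2 either (adjusted p = 0.0547).

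A run of 5 rises covers 90.8 kb of the X chromosome (chrX:11635685-11726461), from Peak_2723 to Peak_2725. Its strongest member, Peak_2724 (4881 bp), rose from 192, 199 and 197 CPM to 228, 243 and 259 CPM, and the median log2 change was 0.23. This run was not whole in every fit: Peak_2723 and Peak_2725 were each called in 2 of 6 fits that left out 1 library and Peak_7676 in 4, and with DESeq2 Peak_2723 and Peak_2725 had adjusted p-values of 0.0700 and 0.0758. The third run, of 5 falls over 120 kb of chromosome 2 (chr2:187668098-187788194), runs from Peak_10847 to Peak_845 with a median log2 change of −0.21. Its largest fall was at Peak_10848, from 40.7, 42.6 and 41.4 CPM to 32.4, 27.2 and 22.1 CPM. Peak_10850 was called in 1 of 6 fits that left out 1 library and Peak_10847 in 5. With all counted reads as library size, Peak_10848 alone of this run was called. The fourth, of 5 rises on chromosome 19 (chr19:25524819-25768044), had a median of 0.16.

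Some peaks could be tied to genes through the study's own lists, which give mean signals that only 1 peak of the table matched within 0.2%. The 31 listed genes corresponded to 29 peaks, some shared by adjacent genes. The study chose these genes on these libraries, for a fall at 30 min or a rise from 30 min to 3.5 h, so their values are a description and not independent evidence. Of 18 peaks listed for a fall at 30 min, 0 were lower than control at 3.5 h by edgeR's test, 1 was higher and 17 were not called, with a median log2 change of 0.01. Of 19 peaks listed for a rise to 3.5 h, 9 were higher than control, 10 were not called and 0 were lower, with a median of 0.13. Over all peaks the median was 0.005, with 12.6% called higher and 16.1% lower.

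The 9 that rose above control included 7 named here. Kank2, a scaffold protein at focal adhesions, had the largest change: its broad Peak_2337 (7155 bp) had 173, 171 and 173 CPM in control cells and 207, 202 and 196 CPM at 3.5 h, a log2 change of 0.23 ± 0.03 (adjusted p = 0.000795). Dlx2, a homeobox transcription factor, went from 248, 252 and 244 CPM to 282, 282 and 290 CPM at Peak_1153 (log2 0.20 ± 0.02). At both genes all 3 libraries at 3.5 h lay above all control libraries, and the 30 min libraries, at 161 to 168 CPM for Kank2 and 236 to 239 CPM for Dlx2, lay below them.

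A pair of genes for mitochondrial carriers and channels was among them. Slc25a23, an ATP-Mg and phosphate carrier of the inner membrane, went from 29.2, 29.3 and 29.8 CPM to 33.5, 32.1 and 37.0 CPM at Peak_7421 (log2 0.21 ± 0.06, adjusted p = 0.0246). This call was lost with DESeq2 (adjusted p = 0.0733), with loess offsets (0.0670) and in 4 of 6 fits that left out 1 library, without any one of the control replicates or without 3.5 h replicate 3, where the adjusted p reached 0.0943. Vdac3, an outer-membrane anion channel, went from 71.8, 74.9 and 74.5 CPM to 79.9, 80.0 and 86.8 CPM at Peak_4041 (log2 0.16 ± 0.04), a call lost without control replicate 1 (adjusted p = 0.0692). Tmem185b (Peak_3472), Lrrc4, a synaptic adhesion protein (Peak_5704), and Mtcp1, of the TCL1 family of AKT co-activators (Peak_10083), rose by 0.19, 0.18 and 0.17, and Lrrc4 lost its call without control replicate 2 (adjusted p = 0.0521).

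Genes listed for the fall at 30 min were near control at 3.5 h. Fpgt, an enzyme of fucose salvage and a gene of both lists, had 48.8, 51.1 and 51.4 CPM in control cells and 54.3, 53.9 and 53.9 CPM at 3.5 h at Peak_948. Its groups did not overlap, but its log2 change of 0.10 ± 0.03 did not pass (adjusted p = 0.0656). Ctgf, a matricellular protein now named Ccn2, had 155, 158 and 137 CPM and then 150, 136 and 138 CPM, with overlapping groups and a log2 change of −0.08 ± 0.05 at Peak_5477 (adjusted p = 0.280). Eln, which encodes elastin, sits at Peak_8639, 1 of the 4 peaks where the libraries split. It had 33.9, 28.3 and 0.484 CPM in the control libraries, 32.8, 0.275 and 0.281 CPM at 3.5 h, and 0.373 to 0.719 CPM at 30 min. The groups overlapped, and the log2 change of −0.86 ± 1.13 had an adjusted p of 0.594. With the library split as a term the log2 change was 0.054, but the reads of this peak were part of what defined the split. Without 3.5 h replicate 1 it was −6.18 (adjusted p = 0.000362), and no other fit that left out 1 library made a call, the change nearest to 0 being −0.29.

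The RefSeq promoters (GRCr8, 250 bases upstream of the start site, matched by symbol or synonym) of 19 of the 31 genes were searched on both strands for the cAMP response element, written TGACGTCA, and its core, written TGACG, which the full element contains. The full element was in 0 of the 19 and in 1.59% of all 33469 promoters, and the core was in 6 of the 19 and in 18.2% of all. Fpgt and Lrriq3 are both among the 6. Their windows overlap on opposite strands and hold the same copy of the core, so that copy is counted for both genes. A match of letters is a description and no sign of binding. The following 3 are shown because their peaks rose above control: Slc25a23 as the gene of both lists, Kank2 for the largest change and Mtcp1 as the called gene whose promoter held the core, in capitals. They lie at chr9:1985366-1985615 (minus strand), chr8:28616994-28617243 (minus strand) and chr18:142166-142415 (plus strand), a build that differs from that of the peaks.
Slc25a23: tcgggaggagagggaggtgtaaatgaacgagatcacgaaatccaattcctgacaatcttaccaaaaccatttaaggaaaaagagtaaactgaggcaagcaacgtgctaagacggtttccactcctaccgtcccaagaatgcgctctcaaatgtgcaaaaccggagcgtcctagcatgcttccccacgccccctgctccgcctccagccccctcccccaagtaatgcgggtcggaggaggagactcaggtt
Kank2: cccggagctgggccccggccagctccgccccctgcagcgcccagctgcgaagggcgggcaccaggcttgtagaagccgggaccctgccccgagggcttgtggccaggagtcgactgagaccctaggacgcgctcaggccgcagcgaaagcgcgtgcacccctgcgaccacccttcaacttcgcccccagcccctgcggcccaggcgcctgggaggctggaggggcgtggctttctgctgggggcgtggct
Mtcp1: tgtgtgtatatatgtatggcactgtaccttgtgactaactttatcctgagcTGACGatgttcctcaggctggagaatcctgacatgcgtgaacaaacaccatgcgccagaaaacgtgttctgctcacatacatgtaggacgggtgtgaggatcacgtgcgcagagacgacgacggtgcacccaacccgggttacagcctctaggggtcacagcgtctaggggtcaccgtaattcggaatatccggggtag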

How the data were processed

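H3K4me3 ChIP-seq of primary rat Schwann cells was used, with 3 libraries per condition and an input library each. Per the labels and the paper's methods, the authors trimmed reads (Trim Galore), mapped them with BWA to Rnor_6.0, discarded duplicates and reads with several positions, filtered MACS2 narrow peaks by their reproducibility, merged the peaks of all treatments and counted with HTSeq. The deposited values are raw counts per merged peak, with no normalization. Counts of the single-library files and the combined table were compared, and 0 values differed. HTSeq's classes outside peaks held 11.5% to 20.9% of the reads of the 6 ChIP libraries and entered neither the main fit nor the CPM values. They entered the share of counted reads in peaks, the ratios to input and the alternatives that used all counted reads. Duplicate removal caps the count of narrow, strong peaks, and scaling to reads in peaks hides any change shared by all peaks.

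The 6 ChIP libraries were fitted with edgeR 4.0.16 (R 4.3.3): quasi-likelihood test with TMM factors and a group term, after filterByExpr, which all 16364 peaks passed, and Benjamini-Hochberg adjustment with calls under 0.05. CPM values use reads in peaks and TMM over the 9 ChIP libraries, so that 30 min levels stand on the same scale. Read shares were compared by exact two-sided permutation tests over 10 assignments. Named peaks were the 10 largest called rises and falls without overlap, the 5 largest of each above the median level, the 5 of each with the smallest p-value among called peaks of 2500 bp or more, and the 3 longest runs. Alternatives were the 9-library fit, no TMM, DESeq2 1.42.0, all counted reads as library size without TMM, loess offsets (span 0.3), no filter, at least 10 counts in every library, limma 3.58.1 voom with sample quality weights, the replicate number as a block, an adjusted p under 0.01, each library left out, and the 2 added after seeing the data: control replicates 1 and 2 averaged as 1 sample, and the library split at 4 peaks as a term. Other calculations used Python 3.11.15, numpy 2.4.6, pandas 2.3.3, statsmodels 0.14.6 and matplotlib 3.10.9.

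The peaks, lists and tests were chosen with earlier results of these data known. Gene symbols were tied to peaks by matching the study's mean signals per length and depth with values from the counts, with 1 scale per condition, a difference under 0.2% and every other peak over 0.5% away. This step was chosen after seeing the data, and no fold change or p-value of the study was used. No Rnor_6.0 annotation was used here, so other peaks carry no gene names, and gene lists and Schwann cell markers were not analysed.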

Additional observations from a re-analysis of the deposited data

How the results depend on the processing

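The number of called peaks depended on the settings. Higher and lower peaks numbered 643 and 1049 at an adjusted p under 0.01, 1054 and 1834 with DESeq2, 4307 and 4612 with voom quality weights, and 720 and 1145 with control replicates 1 and 2 averaged as 1 sample (chosen after seeing the data). With all counted reads as library size and no TMM lower peaks fell to 1163. Leaving out each library gave 629 to 3278 higher and 908 to 3866 lower peaks, the fewest without control replicate 1 or 3.5 h replicate 2 (647 and 908), and the most without 3.5 h replicate 1. Without control replicate 2 there were 785 and 1241, and without control replicate 3 there were 1384 and 1635. No fit called a peak in the opposite direction. The fits that left 1 library out also held fewer libraries, and the cause of the differing counts was not tested. Replicate numbers did not pair the libraries (correlations of same-numbered deviations 0.19, −0.06 and 0.07), and with the replicate block 1924 peaks were higher and 2569 lower. Between differently numbered libraries the correlations ran from −0.26 (control replicate 1, 3.5 h replicate 2) to 0.24 (control replicate 3, 3.5 h replicate 2).

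With all counted reads as denominator, the mean share at 3.5 h minus control turned to 0.022 percentage points below 700 bp, 0.609 at 2500 to under 4000 bp and 0.0597 at 4000 bp or more. Without 3.5 h replicate 3 the change below 700 bp was 0.0122, and the fits that left out a library ranged from −0.0294 to 0.0122. By read share 9 of 20 chromosomes were lower, and by counts of calls 16 were. The share of neighbouring called pairs with the same direction was 69.8% with all counted reads as library size and 57.5% to 64.1% when a library was left out. The log2 change of Eln's Peak_8639 became 0.054 with the library split as a term, a split defined in part by this peak's own reads. The other peaks named by rule, and the other gene peaks described above, kept their direction in all fits in which they were tested. Peak_5923, Peak_7999, Peak_8957, Peak_2704, Peak_6396, Peak_6398, Peak_9943 and Peak_9944 were not part of this check. Depth limits the weak peaks: the 1.87 to 2.01 CPM of Peak_7013 in control cells were 26 to 29 reads.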

Other observations

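The 4 peaks at which the libraries split were chosen after their values were seen. Peak_5923 (chr4:170856817-170857208) held 97, 100 and 3 reads in control replicates 1 to 3 and 129, 1 and 0 reads in 3.5 h replicates 1 to 3. Peak_7999 (chr10:40742447-40743564) held 275, 247 and 1 reads and 304, 2 and 4 reads. Peak_8639 (chr12:25020773-25021867) held 464, 408 and 7 reads and 511, 4 and 4 reads, and Peak_8957 (chr14:6673772-6674650) 153, 144 and 4 reads and 214, 3 and 5 reads. At all 4 the 3 libraries from 30 min held 3 to 11 reads. The inputs numbered as the high libraries held 0 to 4 reads each. Within the libraries high at these peaks, the median difference between 3.5 h and control on the log2(CPM + 0.1) scale was 0.15 over the peaks called higher and −0.15 over those called lower. Within the low libraries it was 0.18 and −0.24. The sign of these medians was set by the choice of peaks.

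On unplaced scaffolds, Peak_2704 held 357, 1449 and 69 reads in control replicates 1 to 3 and 264, 779 and 175 reads in 3.5 h replicates 1 to 3, so replicate 2 was the highest in both groups. The 30 min libraries held 217, 71 and 150 reads, with replicate 2 the lowest.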
